A study of Homo sapiens with 18 samples.

Results

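Glycolysis and hypoxia-responsive genes were examined in K562 cells after knockdown of a circular RNA. The 42 genes were taken by symbol from the 27781 genes of the count table, and all 42 were found there. They comprise 17 glycolytic enzymes, 4 carriers of glucose or lactate, 4 regulators of glycolytic and pyruvate flux, 6 genes of oxygen sensing and the hypoxia-inducible factors (HIF), and 11 other hypoxia targets. K562 is an established cell line from a human chronic myeloid leukemia with the BCR-ABL1 fusion gene. Knockdown cells were transfected with antisense gapmers, DNA-containing oligonucleotides that direct RNase H to a paired RNA, aimed at the junction that closes circPCMTD1, a circular RNA of the PCMTD1 gene. Scrambled cells were transfected with scrambled gapmers, and cells of both groups were collected 48 hours later for sequencing of RNA depleted of ribosomal RNA. There were 18 libraries, 3 technical ones for each of 3 biological replicates per group, and those of a replicate were summed to give 3 knockdown and 3 scrambled samples. All cells came from 1 line, the labels name no low-oxygen treatment and no untransfected group, and nothing in them says whether the biological replicates were separate cultures, so p-values measure the spread between these samples.

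Glycolysis splits glucose into pyruvate, which is reduced to lactate or oxidised in mitochondria. HIF transcription factors pair an alpha subunit, HIF1A or EPAS1 (HIF-2 alpha), with ARNT. When oxygen is present, the EGLN hydroxylases mark the alpha subunit, and VHL, the recognition subunit of a ubiquitin ligase, then has it degraded. Many glycolytic genes are HIF-1 targets, and HIF-2 is best known for inducing erythropoietin. HIF activity is set largely at the protein level, so counts of RNA do not measure it.

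Library totals ran from 19118533 to 29432699 counts and summed samples from 63851576 to 76087774. PCMTD1, the host gene, averaged 12.3 ± 0.515 CPM (counts scaled to a common library size) in knockdown cells and 20.6 ± 1.13 CPM in scrambled cells (SD, n = 3 each), and these gene-level counts mix linear with circular RNA. The labels call the cells lymphoblasts. All 11 erythroid leukemia markers reached a mean of 1 CPM, with sums of 14540 to 15390 CPM in knockdown and 13960 to 14220 CPM in scrambled samples. Of 9 lymphoid markers 2 reached 1 CPM and MS4A1 and DNTT were at 0, with sums of 15.9 to 17.0 CPM in knockdown and 12.4 to 13.4 CPM in scrambled samples. Of 3 monocyte markers 1, LYZ, reached 1 CPM, and the list summed to 46.0 to 47.0 CPM in knockdown and 36.3 to 38.2 CPM in scrambled samples. Of 3 fibroblast markers 1 reached 1 CPM, with sums of 1.39 to 1.91 CPM in knockdown and 1.70 to 2.44 CPM in scrambled samples. Raised and lowered markers numbered 4 and 1 in the erythroid, 3 and 0 in the lymphoid, 1 and 0 in the monocyte and 0 and 1 in the fibroblast list, and their part in the results below was not tested. Knockdown libraries 3_2 and 3_3 stood apart. Relative to the mean of all libraries, the 10% of tested genes lowest in GC content had median deviations of 0.080 and 0.11 on the log2 scale, and the 10% with the highest -0.12 and -0.13. Results that rest on them are given with and without them.

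HIF binds short DNA elements whose core reads ACGTG or GCGTG. The 250 bases before the start of transcription are shown for 4 of the genes that fell in knockdown cells (RefSeq, GRCh38.p14), as examples of how differently such cores are laid out, with every core on either strand (CACGT and CACGC on the other) in capitals.
BNIP3, chr10:131981924-131982173, minus strand: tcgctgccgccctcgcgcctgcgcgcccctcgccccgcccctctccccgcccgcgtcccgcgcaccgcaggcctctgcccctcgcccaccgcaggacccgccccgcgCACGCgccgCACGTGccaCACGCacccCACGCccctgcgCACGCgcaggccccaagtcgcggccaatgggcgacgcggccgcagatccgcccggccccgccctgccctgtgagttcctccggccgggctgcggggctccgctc
P4HA1, chr10:73096867-73097116, minus strand: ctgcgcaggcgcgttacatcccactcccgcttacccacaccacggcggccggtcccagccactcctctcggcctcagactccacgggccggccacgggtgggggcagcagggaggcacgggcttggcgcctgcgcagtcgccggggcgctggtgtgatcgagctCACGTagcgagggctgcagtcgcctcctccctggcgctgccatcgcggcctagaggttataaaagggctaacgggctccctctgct
HK2, upstream start, chr2:74833877-74834126, plus strand: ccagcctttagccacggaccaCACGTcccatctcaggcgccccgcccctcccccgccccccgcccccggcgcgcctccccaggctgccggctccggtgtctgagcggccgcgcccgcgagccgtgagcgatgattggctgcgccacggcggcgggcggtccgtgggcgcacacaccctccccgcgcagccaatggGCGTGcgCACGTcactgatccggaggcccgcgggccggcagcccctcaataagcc
HK2, downstream start, chr2:74834920-74835169, plus strand: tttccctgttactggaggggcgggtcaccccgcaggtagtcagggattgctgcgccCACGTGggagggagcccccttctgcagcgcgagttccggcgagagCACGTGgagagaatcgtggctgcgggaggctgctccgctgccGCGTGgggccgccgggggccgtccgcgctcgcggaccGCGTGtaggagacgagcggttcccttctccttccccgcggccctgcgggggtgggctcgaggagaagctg
EPAS1, chr2:46297157-46297406, plus strand: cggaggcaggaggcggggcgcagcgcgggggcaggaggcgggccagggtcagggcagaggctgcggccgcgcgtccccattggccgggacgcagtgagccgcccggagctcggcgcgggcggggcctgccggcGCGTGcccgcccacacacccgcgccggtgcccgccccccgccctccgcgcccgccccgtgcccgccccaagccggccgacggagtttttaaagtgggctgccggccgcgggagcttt
The palindrome CACGTG counts on both strands. By this count BNIP3 held 6 cores and P4HA1 1, HK2 held 3 before its upstream and 6 before its downstream start, and EPAS1 held 1. LDHB, lowered as well, held 0 in its window. Windows were found for 36 of the 42 genes, 66 windows in all. None was found for SLC2A3, SLC16A1, VHL, VEGFA, BNIP3L and NDRG1. A core was present in 19 of 37 enzyme windows and in 10 of 11 windows of the other hypoxia targets, against 54.1% of the 16399 windows of all tested genes and 43.2% of all 35116 windows. These are counts of windows and not of genes, and 13 genes had more than 1 window. The enzymes HK1 and PFKM entered with several windows, most of them without a core. The shares therefore depend on how many starts are annotated and do not compare genes. A core in these letters is a description of sequence and not a binding site.

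Changes in the 42 genes were small, and more fell than rose. With edgeR's quasi-likelihood test, called at a Benjamini-Hochberg adjusted p under 0.05 over 15678 genes, 1 of 41 tested genes was raised in knockdown cells (2.44%, against 11.1% of all tested genes) and 6 were lowered (14.6%, against 7.49%). Of the 42 genes 37 averaged 10 CPM or more, and of all genes at that level 11.4% were raised and 10.2% lowered. SLC2A3 was the gene that rose, and EPAS1, VEGFA, HK2, LDHB, P4HA1 and BNIP3 fell. EPAS1 fell by 24.8%, VEGFA fell by 10.6%, and the other 4 fell by 5.27% to 8.21%. The median log2 fold change of the 41 was -0.028, against 0.0022 for all tested genes, and 29 of the 41 values were below 0. Values below 0 numbered 7706 of all 15678 tested genes and 4933 of the 9301 at 10 CPM or more. In bulk RNA, fewer cells that express a gene and less RNA per cell cannot be told apart. CA9, a carbonic anhydrase gene strongly induced by hypoxia in many cells, was not tested, with 7, 10 and 7 counts in knockdown and 10, 8 and 5 counts in scrambled samples.

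The ranges of the 3 knockdown and 3 scrambled samples did not overlap for 17 genes. Knockdown was higher in 5 (12.2%, against 18.1% of all tested genes and 17.5% of those at 10 CPM or more). It was lower in 12 (29.3%, against 16.5% and 20.9%). An exact permutation test of 3 against 3 samples cannot go below 0.1, so these counts carry no test of their own.

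**Figure D1:**
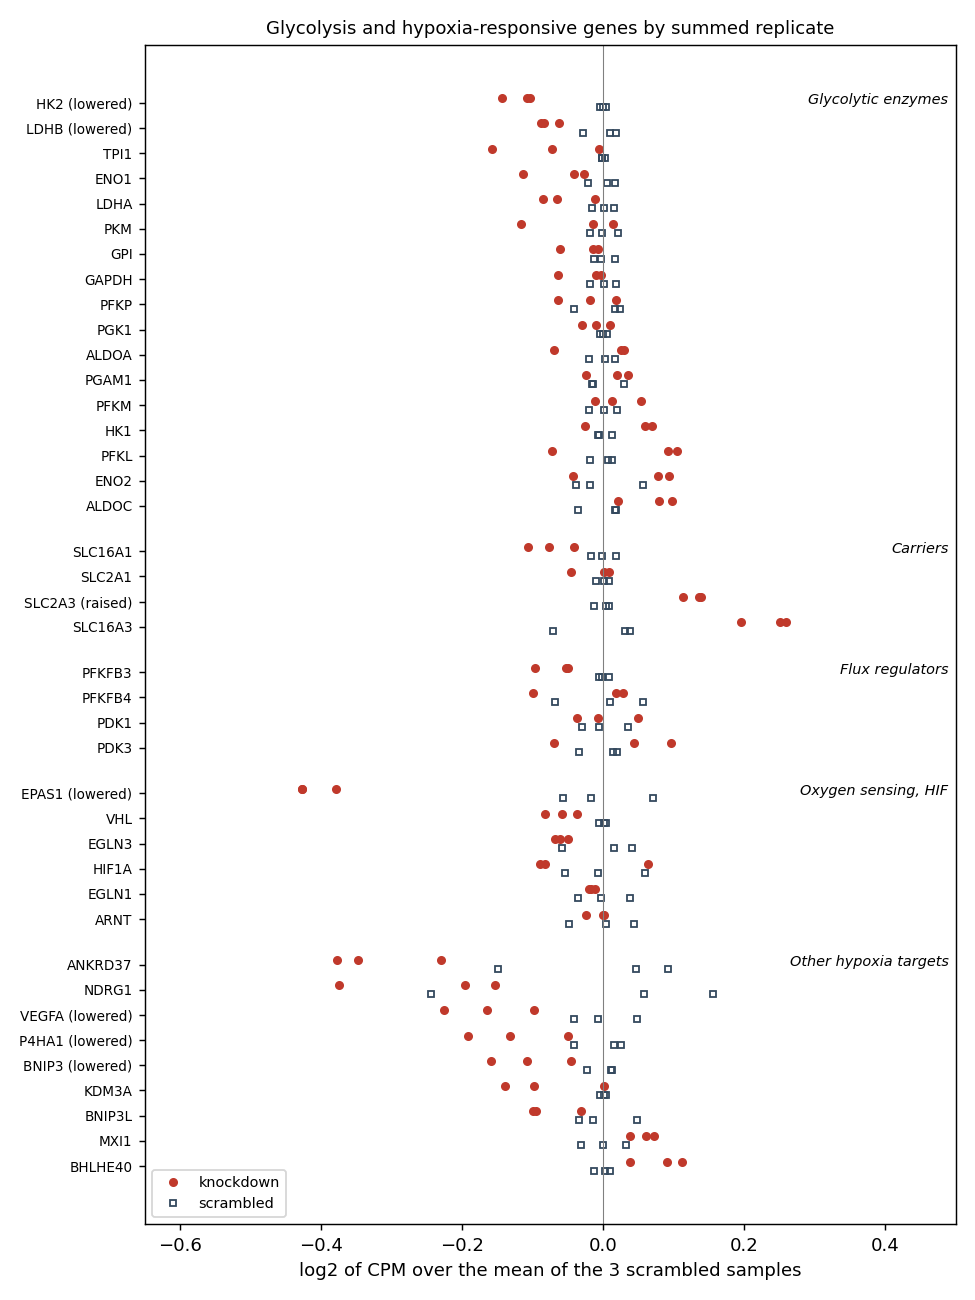
Level of each tested gene other than ADM in the 6 summed samples, as log2 of CPM over the mean of the 3 scrambled samples (x axis), by role (y axis); filled circles are knockdown and open squares scrambled samples, and genes called in edgeR are labelled. EPAS1 lies farthest to the left, with knockdown samples at 29.7, 30.7 and 29.7 CPM, while the enzymes cluster near 0.

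The glycolytic enzymes differed little between the groups. Of 17 enzymes 0 were raised and 2 lowered by edgeR, HK2 and LDHB, and DESeq2 likewise called 0 raised (against 9.57% of all genes it gave an adjusted p) and 2 lowered (against 8.16%). At an unadjusted p below 0.05, edgeR gave 5 of the 17 (29.4%), near the 31.2% of all tested genes. Their log2 fold changes ran from -0.12 to 0.066, with SEs of 0.023 to 0.041, a median of -0.022 and 11 values below 0. Summed over the 17 enzymes, the level was 10230, 10170 and 9763 CPM in knockdown samples and 10370, 10300 and 10170 CPM in scrambled samples. Per length, on the TPM scale (transcript abundance corrected for the exon length in GENCODE 29), GAPDH ranked 43 among all genes with a length, ENO1 53 and ALDOA 79.

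HK2, the inducible hexokinase that traps glucose inside the cell as its phosphate, was lowered. It had 139, 139 and 136 CPM in knockdown samples, against 149, 150.3 and 149.9 CPM in scrambled samples. All 3 knockdown samples lay below the scrambled ones, and so did all 9 knockdown libraries, at 131.5 to 145.2 CPM against 148.9 to 152.3 CPM. The log2 fold change was -0.12 (SE 0.028, edgeR quasi-likelihood adjusted p = 0.00428). Per length it averaged 55.0 ± 0.465 TPM in knockdown and 58.4 ± 0.956 TPM in scrambled samples (SD, n = 3 each). HK2 is annotated at chr2:74833981-74893359 (plus strand, GRCh38, GENCODE 29), and its 2 windows shown above held the cores listed there. HK1, the constitutive hexokinase and the more abundant of the pair, had 822, 817 and 769 CPM in knockdown samples, against 791, 780.3 and 779.9 CPM in scrambled samples. Those ranges overlapped, with a log2 fold change of 0.04 (SE 0.025).

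LDHB, the lactate dehydrogenase subunit that favours the oxidation of lactate, was lowered too. It had 502, 503 and 511 CPM in knockdown samples, against 537, 540 and 523 CPM in scrambled samples. The groups did not overlap, with a log2 fold change of -0.078 (SE 0.024, edgeR quasi-likelihood adjusted p = 0.0227). This call was lost without knockdown replicate 1 or 2 or scrambled replicate 1 or 2, where edgeR's adjusted p ran from 0.0729 to 0.165. Per length LDHB averaged 409.4 ± 13.6 TPM in knockdown and 422.0 ± 6.49 TPM in scrambled samples (SD, n = 3 each), a difference smaller than the larger SD. LDHB is annotated at chr12:21635342-21757857 (minus strand), and 56.2% of its annotated exon bases are shared with another gene on the same strand, so its count may be split. LDHA, the subunit that favours lactate production, had 709, 699 and 736 CPM in knockdown samples, against 734, 749.6 and 742 CPM in scrambled samples. Knockdown sample 3 reached into the scrambled range, and LDHA was not called (log2 fold change -0.05, SE 0.024).

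In the upper pathway, PFKL, the liver-type phosphofructokinase, had 167, 169 and 149 CPM in knockdown samples, against 158, 158 and 155 CPM in scrambled samples. Knockdown samples 1 and 2 lay above the scrambled range and knockdown sample 3 below it. ALDOC, the brain-type aldolase, had 60.4, 61.1 and 57.9 CPM in knockdown samples, against 57.8, 57.8 and 55.7 CPM in scrambled samples. The lowest knockdown sample lay just above the highest scrambled one (log2 fold change 0.07, SE 0.034, edgeR quasi-likelihood adjusted p = 0.189). GPI, PFKM, PFKP and ALDOA overlapped between the groups, with log2 fold changes from -0.03 to 0.02. Of the annotated exon bases of ALDOA 68.0% are shared with another gene on the same strand, so its count may be split.

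In the lower pathway, TPI1, which interconverts the triose phosphates, had 414, 396 and 373 CPM in knockdown samples, against 417, 416 and 416 CPM in scrambled samples. GAPDH, which oxidises glyceraldehyde phosphate, had 1778, 1768 and 1703 CPM in knockdown samples, against 1803, 1783 and 1758 CPM in scrambled samples. ENO1, the main enolase, had 2499, 2475 and 2354 CPM in knockdown samples, against 2576, 2557 and 2509 CPM in scrambled samples. In each of these the lowest value was that of knockdown sample 3. Without knockdown libraries 3_2 and 3_3 the log2 fold change was -0.044 for TPI1 and -0.044 for ENO1, both lowered, and without knockdown replicate 3 it was -0.039 for TPI1, not called, and -0.035 for ENO1, lowered. With all libraries TPI1 and ENO1 did not overlap between the groups, at log2 fold changes of -0.08 (SE 0.030) and -0.06 (SE 0.024), and missed the threshold with edgeR quasi-likelihood adjusted p of 0.0757 and 0.0784. ENO2, the neuronal enolase, had 40.5, 40.1 and 36.8 CPM in knockdown samples, against 36.9, 37.5 and 39.5 CPM in scrambled samples, with knockdown samples 1 and 2 above the scrambled range and knockdown sample 3 just below it. PGK1, PGAM1 and PKM overlapped, at -0.01, 0.01 and -0.04. Differences of this size depend on the scale: GAPDH averaged 1750 CPM in knockdown and 1781 CPM in scrambled samples, but 1419 ± 5.12 TPM in knockdown and 1411 ± 7.08 TPM in scrambled samples (SD, n = 3 each). Near-identical copies can share reads with these genes. PGAM4, the copy of PGAM1, was not called (log2 fold change 0.07), nor were TPI1P2 and TPI1P3 (0.11 and -0.11).

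Among the carriers, SLC2A3 (GLUT3), a glucose transporter of high affinity, was the 1 gene of the set that rose. It had 139, 139 and 137 CPM in knockdown samples, against 127, 125 and 127 CPM in scrambled samples. All 9 knockdown libraries, at 132.1 to 143.3 CPM, lay above all 9 scrambled libraries, at 122.5 to 131.9 CPM. The log2 fold change was 0.13 (SE 0.028, edgeR quasi-likelihood adjusted p = 0.00227). Per length it averaged 54.2 ± 0.742 TPM in knockdown and 48.4 ± 0.616 TPM in scrambled samples (SD, n = 3 each). SLC2A3 is annotated at chr12:7919230-7936275 (minus strand). Its near-identical copy SLC2A14, with 591, 529 and 607 counts in knockdown and 625, 516 and 530 counts in scrambled samples, was not called (0.15, SE 0.066), and the authors' counting could divide reads between them.

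SLC2A1 (GLUT1), the widespread basal glucose transporter, had 266, 265 and 256 CPM in knockdown samples, against 265, 266 and 263 CPM in scrambled samples. The groups overlapped, and the 95% interval of its log2 fold change ran from -0.07 to 0.04. SLC16A1 (MCT1), a lactate carrier, had 238, 233 and 244 CPM in knockdown samples, against 248, 251 and 254 CPM in scrambled samples. Its groups did not overlap (log2 fold change -0.07, SE 0.026), but edgeR's quasi-likelihood test gave an adjusted p of 0.0525, while DESeq2 called it lowered at an adjusted p of 0.0252. SLC16A3 (MCT4), the lactate exporter of glycolytic cells, was far less abundant, with 3.08, 2.97 and 3.10 CPM in knockdown and 2.65, 2.47 and 2.66 CPM in scrambled samples. Its groups did not overlap, and its log2 fold change of 0.24 (SE 0.094) was not called (edgeR quasi-likelihood adjusted p = 0.0838). Exons of CSNK1D on the opposite strand, a gene lowered at -0.086, cover 6.5% of its exon bases, so without a known strand setting the SLC16A3 count is uncertain.

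Of the 4 flux regulators 0 were called by edgeR, 0 by DESeq2, and 0 had an unadjusted p below 0.05 in edgeR. Of all tested genes edgeR raised 11.1%, lowered 7.49% and gave 31.2% an unadjusted p below 0.05, so 4 genes are few to compare. PFKFB3, which makes the fructose bisphosphate that activates phosphofructokinase, had 35.3, 35.2 and 34.2 CPM in knockdown samples, against 36.4, 36.5 and 36.7 CPM in scrambled samples. These did not overlap, at a log2 fold change of -0.07 (SE 0.036). PDK1, a kinase that inactivates pyruvate dehydrogenase and a HIF target, had 42.8, 43.7 and 45.4 CPM in knockdown samples, against 43.7, 43.0 and 45.0 CPM in scrambled samples. Its groups overlapped, with a 95% interval of -0.07 to 0.08. PFKFB4 and PDK3 overlapped as well, at -0.02 and 0.02.

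The largest difference in the set was in EPAS1, the HIF-2 alpha subunit. EPAS1 had 29.7, 30.7 and 29.7 CPM in knockdown samples, against 39.5, 38.4 and 41.96 CPM in scrambled samples. All 3 knockdown samples lay below every scrambled sample. The 9 knockdown libraries, at 29.2 to 31.4 CPM, also lay below the 9 scrambled libraries, at 35.1 to 43.1 CPM. The log2 fold change was -0.41 (SE 0.040, 95% interval -0.49 to -0.33, edgeR quasi-likelihood adjusted p = 1.51e-07), a fold of 0.752. Per length it averaged 9.94 ± 0.208 TPM in knockdown and 12.9 ± 0.694 TPM in scrambled samples (SD, n = 3 each). Without knockdown libraries 3_2 and 3_3 it was -0.41, with GC correction -0.40, and without any 1 replicate between -0.44 and -0.38. EPAS1 is annotated at chr2:46293667-46386703 (plus strand), and no annotated exon of another gene overlaps its exons.

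The other 5 genes of this role were not called. HIF1A, the other alpha subunit, had 49.4, 49.6 and 55.0 CPM in knockdown samples, against 50.6, 52.3 and 54.8 CPM in scrambled samples. Knockdown sample 3 was the highest of the 6, the groups overlapped, and the log2 fold change was -0.03 (SE 0.041). ARNT, the shared partner, had 67.1, 68.3 and 68.4 CPM in knockdown samples, against 70.4, 68.5 and 66.1 CPM in scrambled samples. Its groups overlapped, with a 95% interval of -0.08 to 0.06. VHL had 156, 153 and 158 CPM in knockdown samples, against 162, 163 and 162 CPM in scrambled samples. The groups did not overlap, at -0.06 (SE 0.027), and VHL was not called (edgeR quasi-likelihood adjusted p = 0.135). HIF1A at -0.087 and VHL at -0.076 were lowered when knockdown libraries 3_2 and 3_3 were left out, and with GC correction VHL was lowered at -0.048. EGLN1 and EGLN3, the oxygen-sensing hydroxylases, overlapped at -0.02 and -0.06. All 6 genes of this role had log2 fold changes below 0, with a median of -0.05, and 1 of the 6 was called. Of all 15678 tested genes 7706 had values below 0 and 7.49% were lowered.

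**Figure D2:**
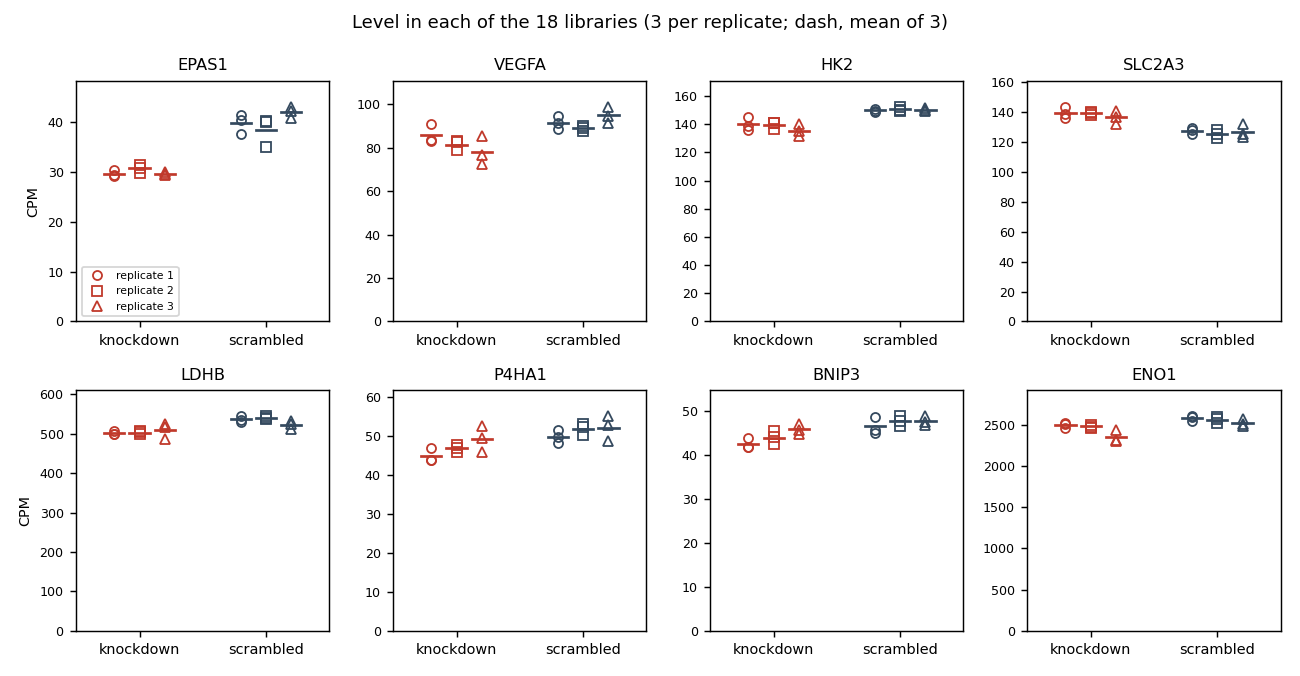
CPM (y axis, from 0) in each of the 18 libraries for 7 called genes and ENO1, knockdown left and scrambled right; marker shapes are replicates 1 to 3 and dashes are the mean of 3 technical libraries. For EPAS1, HK2 and SLC2A3 no knockdown library falls within the range of the scrambled libraries, whereas for ENO1 the groups meet.

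The other hypoxia targets included 3 of the 6 lowered genes. Of 10 tested targets 3 were lowered and 0 raised by edgeR (VEGFA, P4HA1 and BNIP3). DESeq2 called 2 lowered and 0 raised, and ADM got no adjusted p from it. In edgeR 8 of the 10 had an unadjusted p below 0.05, against 31.2% of all tested genes and 34.8% of those at 10 CPM or more. Their median log2 fold change was -0.11, with 8 values below 0. VEGFA, the angiogenic growth factor, had 85.5, 81.6 and 78.2 CPM in knockdown samples, against 91.0, 88.9 and 94.6 CPM in scrambled samples. Every knockdown sample lay below the scrambled range, at a log2 fold change of -0.16 (SE 0.035, edgeR quasi-likelihood adjusted p = 0.00248). VEGFA is annotated at chr6:43770184-43786487 (plus strand). Among libraries the ranges overlapped, with 72.4 to 91.0 CPM in knockdown and 87.9 to 98.9 CPM in scrambled cells.

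P4HA1, a prolyl hydroxylase subunit for collagen, had 44.8, 46.7 and 49.5 CPM in knockdown samples, against 49.7, 51.8 and 52.1 CPM in scrambled samples. The closest samples were knockdown 3 and scrambled 1, and the log2 fold change was -0.12 (SE 0.038, edgeR quasi-likelihood adjusted p = 0.0255). Without knockdown replicate 1 or 2 or scrambled replicate 2 or 3 the call was lost, at adjusted p of 0.0789 to 0.135 in edgeR. Per length it averaged 36.8 ± 2.64 TPM in knockdown and 39.1 ± 1.52 TPM in scrambled samples (SD, n = 3 each), a difference smaller than the larger SD. P4HA1 is annotated at chr10:73007217-73096974 (minus strand).

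BNIP3, a mitochondrial receptor for mitophagy, had 42.5, 44.0 and 46.0 CPM in knockdown samples, against 46.7, 47.8 and 47.8 CPM in scrambled samples. The groups did not overlap, and its call was the weakest of the 7, at -0.10 (SE 0.036, edgeR quasi-likelihood adjusted p = 0.0486). The call held in 9 of 17 alternative settings. It was lost with upper-quartile factors, with the first technical library alone, with DESeq2 (adjusted p = 0.0538) and without any 1 replicate other than knockdown replicate 3, at 0.0907 to 0.209 in edgeR. Per length it averaged 20.06 ± 1.24 TPM in knockdown and 21.05 ± 0.578 TPM in scrambled samples (SD, n = 3 each), a difference smaller than the larger SD. BNIP3 is annotated at chr10:131966455-131982013 (minus strand). Its window shown above held 6 cores, the one of P4HA1 a single core. BNIP3L, the related mitophagy receptor of maturing red cells, had 46.9, 47.0 and 49.1 CPM in knockdown samples, against 49.0, 49.7 and 51.9 CPM in scrambled samples. Knockdown sample 3 overlapped the scrambled range, and BNIP3L was not called (-0.07, SE 0.036).

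KDM3A, a histone demethylase, had 79.0, 76.8 and 84.6 CPM in knockdown samples, against 84.6, 84.3 and 84.8 CPM in scrambled samples. Knockdown sample 3 alone lay among the scrambled values, and KDM3A was not called (-0.08, SE 0.035). Lower in abundance, NDRG1, a stress-responsive gene, had 6.65, 6.86 and 5.88 CPM in knockdown samples, against 8.50, 7.94 and 6.44 CPM in scrambled samples. ANKRD37, a HIF-1 target, had 1.81, 1.67 and 1.64 CPM in knockdown samples, against 2.20, 2.27 and 1.92 CPM in scrambled samples. ANKRD37 did not overlap and NDRG1 did. Their log2 fold changes of -0.24 (SE 0.085) and -0.32 (SE 0.12), NDRG1 first, missed the threshold with edgeR quasi-likelihood adjusted p of 0.0506 and 0.0590. BHLHE40 (DEC1), a transcriptional repressor, went the other way and had 106, 104 and 101 CPM in knockdown samples, against 98.0, 98.5 and 97.0 CPM in scrambled samples. Its groups did not overlap, at 0.08 (SE 0.031, edgeR quasi-likelihood adjusted p = 0.0718). MXI1, a MYC antagonist, was at 0.06 with no overlap and was not called. ADM, the adrenomedullin gene, had 10 to 13 counts in knockdown and 11 to 18 counts in scrambled samples and was not called, with a 95% interval of its log2 fold change from -0.94 to 0.54.

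Set side by side, the 17 enzymes had a median log2 fold change of -0.022 and the 10 tested targets of -0.11. The median was 0.0022 for all tested genes and -0.0057 for those at 10 CPM or more. The roles differ in abundance, since every enzyme averaged over 10 CPM. The targets ADM, NDRG1 and ANKRD37 averaged less and were not called, but enter the target median at -0.20, -0.24 and -0.32. A target median without them was not computed. Lowered enzymes made up 11.8% and lowered targets 30.0% of those tested, against 10.2% of tested genes at 10 CPM or more. Without overlap 4 of 17 enzymes (23.5%) and 4 of 10 targets (40.0%) lay lower, against 20.9% of genes at that level. Summed over the 11 targets, the level was 434.8, 431.3 and 437.9 CPM in knockdown and 451.3, 452.2 and 458.4 CPM in scrambled samples. In TPM these sums overlapped, at 188.4, 188.6 and 199.0 in knockdown and 188.0, 193.9 and 196.4 in scrambled samples. The difference between the roles was not tested, since genes are not replicates. The number of calls moved with knockdown libraries 3_2 and 3_3, while the medians kept their order. Without these libraries 6 of the 41 genes were raised (14.6%, against 16.5% of all tested genes) and 16 were lowered (39.0%, against 15.5% of all and 22.7% of genes at 10 CPM or more). Among enzymes 4 were raised, HK1, PFKL, ALDOC and ENO2, and 5 lowered, HK2, TPI1, ENO1, LDHA and LDHB. Among targets 1 was raised, BHLHE40, and 7 lowered, adding BNIP3L, NDRG1, ANKRD37 and KDM3A. Medians were then -0.0086 for enzymes and -0.12 for targets.

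A correction for transcript GC content over all libraries gave 4 raised (9.76%, against 16.0% of all tested genes) and 16 lowered (39.0%, against 14.5% of all and 20.8% at 10 CPM or more). Enzymes then had 2 raised and 6 lowered, GAPDH among them at -0.034, and targets 1 raised and 7 lowered. Medians were -0.017 for enzymes and -0.11 for targets. In single libraries the enzyme median, as a deviation from the mean of all libraries, was -0.067 and -0.079 in knockdown 3_2 and 3_3, and -0.015 to 0.050 in the other 7 knockdown libraries. The target median was 0.0004 and 0.0014 in 3_2 and 3_3, and -0.12 to -0.0071 in the other 7. In scrambled libraries the enzyme median ran from -0.0255 to 0.0369 and the target median from 0.0001 to 0.0777. Median transcript GC content was 53.1% for enzymes and 47.6% for targets. Its part in the difference between enzymes and targets was not tested beyond the correction.

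**Figure D3:**
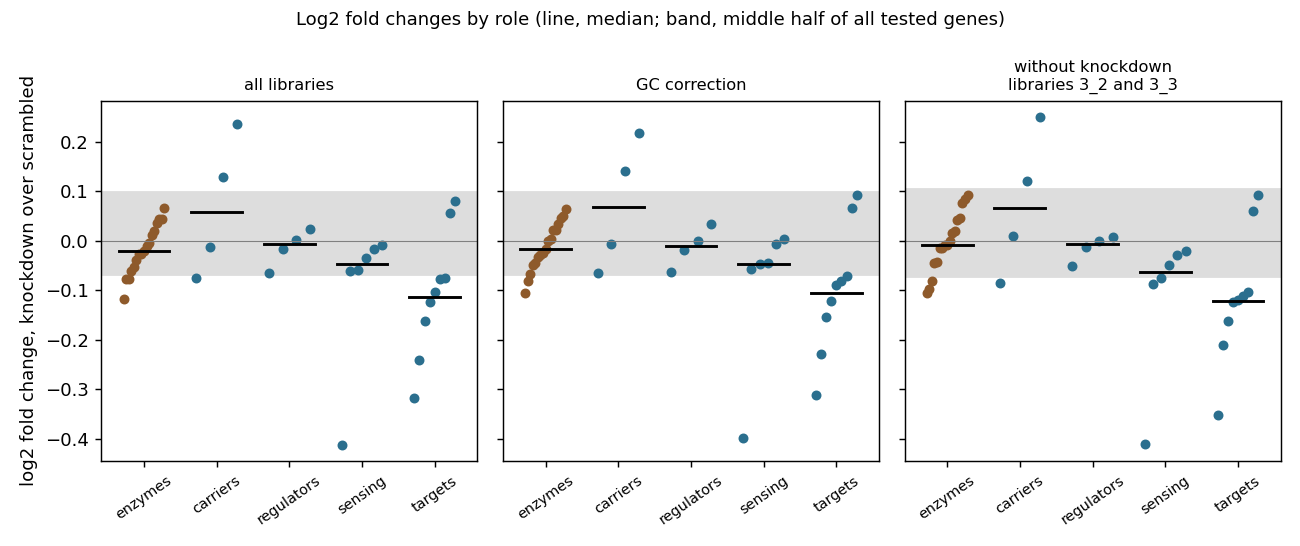
Log2 fold changes, knockdown over scrambled (y axis), of the tested genes by role (x axis), from all libraries, after correction for GC content, and with knockdown libraries 3_2 and 3_3 left out; points are genes (ADM is not drawn), lines are medians and the grey band holds the middle 50% of all tested genes. Target medians of -0.11, -0.11 and -0.12 lie below enzyme medians of -0.022, -0.017 and -0.0086.

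Ratios between related genes of 1 sample need no scaling between libraries. Of 13 such ratios 6 did not overlap between the groups. Each had a two-sided exact permutation p of 0.1, the smallest that 3 against 3 samples allow, and 0.217 after adjustment over the 13. Of all tested single genes 18.1% lay higher and 16.5% lower without overlap, and no share over other gene pairs was computed. HK2 over HK1, SLC2A3 over SLC2A1 and EPAS1 over HIF1A each hold a gene already called from the same counts, so they are no separate results. HK2 counts were 17.0%, 17.0% and 17.6% of HK1 counts in knockdown and 18.9%, 19.3% and 19.2% in scrambled samples, and the single libraries did not overlap either. EPAS1 counts were 60.1%, 61.8% and 54.0% of HIF1A counts in knockdown and 78.0%, 73.4% and 76.6% in scrambled samples. Per length the EPAS1 level averaged 41.4% of HIF1A in knockdown and 53.6% in scrambled samples. HIF1A RNA was thus the more abundant in both groups, which does not measure the subunit proteins.

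SLC2A3 counts averaged 52.7% ± 0.592 of SLC2A1 counts in knockdown and 47.7% ± 0.622 in scrambled samples (SD, n = 3 each). ALDOC over ALDOA averaged 4.85% ± 0.0601 in knockdown and 4.62% ± 0.0509 in scrambled samples. SLC16A3 over SLC16A1 averaged 1.28% ± 0.0132 in knockdown and 1.03% ± 0.0436 in scrambled samples, and EGLN3 over EGLN1 68.9% ± 0.590 in knockdown and 71.0% ± 1.92 in scrambled samples. The lactate dehydrogenase pair overlapped, with LDHB at 70.7% ± 1.27 of LDHA counts in knockdown and 71.9% ± 1.37 in scrambled samples. PFKP over PFKL, PFKM over PFKL, ENO2 over ENO1, PFKFB4 over PFKFB3, PDK3 over PDK1 and BNIP3L over BNIP3 overlapped too.

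**Figure D4:**
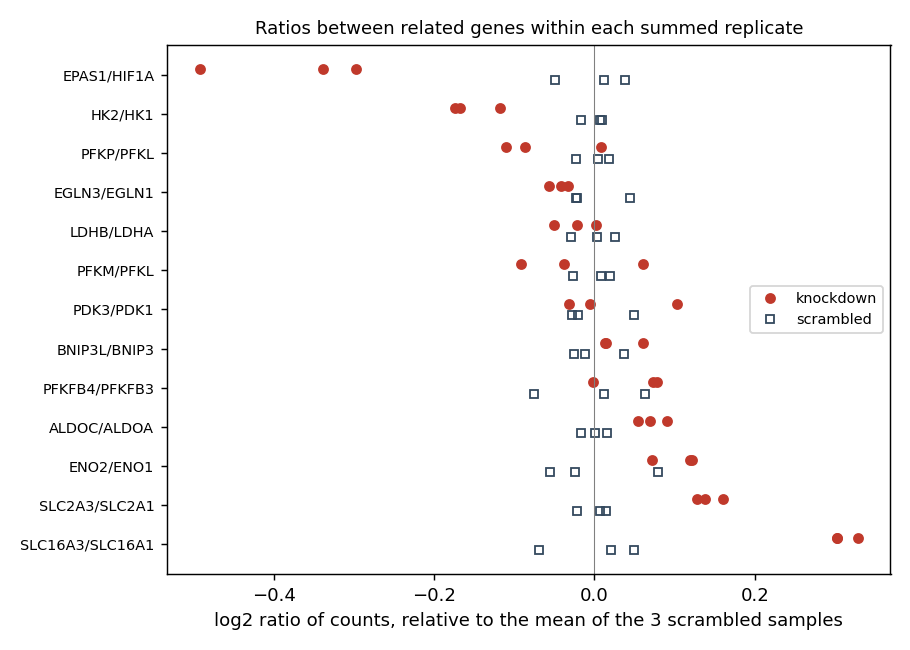
Log2 ratio of counts of 13 pairs of related genes (y axis) in each summed sample, relative to the mean of the 3 scrambled samples (x axis); filled circles are knockdown and open squares scrambled samples. EPAS1 over HIF1A and HK2 over HK1 lie lowest in knockdown samples, and SLC2A3 over SLC2A1 and SLC16A3 over SLC16A1 highest.

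Of 85 other genes of glycolysis and the hypoxia response, a list written with earlier results known, 68 were tested. Of these 11 were raised (16.2%, against 11.1% of all tested genes) and 1 was lowered (1.47%, against 7.49%), and their median log2 fold change was 0.02. The glycolysis genes among them had 7 raised and 0 lowered of 25, where 11.1% of all tested genes were raised and 7.49% lowered. DESeq2 raised 2 of these genes, SLC2A4 and BPGM, against 9.57% of all genes it gave an adjusted p. It gave none to HK3, HKDC1, LDHD, PDK2, SLC2A10 and GCKR. Those raised by edgeR were BPGM, which makes the haemoglobin ligand bisphosphoglycerate, at 0.19, the pyruvate dehydrogenase phosphatase PDP1 at 0.30, the mitochondrial pyruvate carrier MPC1 at 0.13, TIGAR at 0.60, the glucokinase regulator GCKR at 0.75, and the glucose transporters SLC2A4 and SLC2A8 at 0.40 and 0.22. GCKR and TIGAR had means under 1 CPM in both groups. Of the 17 alternatives PDP1 kept its call in 6, TIGAR in 8, GCKR in 11, MPC1 and SLC2A8 in 12 each and BPGM in 13. SLC2A4, with 4.46, 4.34 and 3.83 CPM in knockdown and 3.08, 3.05 and 3.45 CPM in scrambled samples, kept its call in all 17 alternatives.

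The hypoxia genes outside the 42 had 4 raised and 1 lowered of 43. Of all 15678 tested genes 1745 were raised (11.1%) and 1175 lowered (7.49%). DDIT4, an inhibitor of mTORC1 signalling induced by hypoxia and by other stresses, had 107, 108 and 99.3 CPM in knockdown and 159.9, 159.9 and 158 CPM in scrambled samples. All knockdown samples lay far below the scrambled ones, at -0.60 (SE 0.032, edgeR quasi-likelihood adjusted p = 6.21e-12). PLOD1, a lysyl hydroxylase for collagen, rose at 0.14, the mitochondrial adenylate kinase AK4 at 0.14, OS9 at 0.13 and the corepressor RCOR2 at 0.48. DESeq2 raised 6 and lowered 1 of the 68, but some of them, EGLN2, PLOD2, ANGPTL4, CA12 and VLDLR included, got no adjusted p. At an unadjusted p below 0.05, edgeR gave 21 of the 68 (30.9%), near the 31.2% of all tested genes.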

How the data were processed

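The authors deposited whole-number counts per gene symbol for 18 libraries, with no normalization. Per the submitters' processing notes reads went through Trim Galore, STAR and featureCounts, with GRCh38 as the build. Their versions, the annotation and the strand setting were not given in the sources used here, and reads of overlapping genes may be counted together. Per the labels, libraries were directional and made from RNA depleted of ribosomal RNA. The protocols speak of gapmers and the sample descriptions of siRNA; the protocols were followed. No 2 columns were identical.

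Technical libraries were summed by the first number of each label, giving 3 knockdown and 3 scrambled samples. The robust quasi-likelihood test of edgeR 4.0.16 (R 4.3.3) was run after filterByExpr and TMM scaling, and a gene was called where its Benjamini-Hochberg adjusted p over 15678 genes was under 0.05. CPM used TMM-scaled totals, with SDs over the 3 summed samples. TPM, used for levels between genes, came from exon lengths of GENCODE 29 without TMM factors. The procedure was also run on simulated counts, with set changes larger than most of those given here. These counts held no technical libraries and no deviation with GC content, so they do not bear on how such libraries move the calls. Members and lists were chosen with earlier results of these data known.

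Alternatives were DESeq2 1.42.0, RLE and upper-quartile factors, a fit blocked on replicate number, other count filters, libraries entered singly, the first technical library only, each replicate left out, knockdown libraries 3_2 and 3_3 left out, and a lowess fit (span 0.3) to transcript GC content, known for 96.4% of tested genes. A ratio of related genes was tested by exact permutation of its log2 over the 6 samples. Values in every summed sample are given for genes called in edgeR, for genes called in an alternative that leaves out no replicate, and for the 2 most abundant genes of each role. Other pathway genes are named where called. Promoter windows came from RefSeq. Analysis used Python 3.11.15, pandas 2.3.3, numpy 2.4.6, scipy 1.17.1 and matplotlib 3.10.9.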

Additional observations from a re-analysis of the deposited data

Results flagged for a closer look

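Of 82 groups of 9 libraries, the 41 tested genes in each condition, 2 held a library far from the others by Dixon's criterion, where chance gives about 1 in 20. VHL in knockdown library 3_3 was at 164.2 CPM, with the nearest knockdown library at 158.0 CPM and the lowest at 152.1 CPM. BNIP3L in the same library was at 52.5 CPM, with the nearest at 48.5 CPM and the lowest at 45.9 CPM. This is 1 of the libraries that deviated most with transcript GC content, and the part of GC content in these values was not tested. With all libraries VHL and BNIP3L were not called (edgeR quasi-likelihood adjusted p = 0.135 and 0.154). Without knockdown libraries 3_2 and 3_3 both were lowered, VHL at -0.076 and BNIP3L at -0.10 on the log2 scale.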

How the results depend on the processing

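SLC2A3, HK2, EPAS1 and VEGFA kept their calls in all 17 alternatives, LDHB and P4HA1 in 13 and BNIP3 in 9, and 0 values changed sign where a call was made. The settings named here changed counts by over 1.5 times, and the cause was not tested. Against 1 raised and 6 lowered genes of the set, GC correction gave 4 and 16, without or with the replicate block, libraries entered singly gave 2 and 15, leaving out knockdown libraries 3_2 and 3_3 gave 6 and 16, and the first technical library alone gave 4 raised. The replicate block gave 2 and 12. Calls over all genes moved as well. Against 1745 raised and 1175 lowered of 15678, the block gave 2213 and 1772 of 15678. Libraries entered singly, which treats technical libraries as replicates, gave 2137 and 2036 of 13830. The first technical library alone gave 1180 and 841 of 13926, and leaving out knockdown replicate 3 gave 2482 and 2280 of 15955. Same-numbered samples did not deviate together (correlations of 0.037, 0.008 and 0.026). Such correlations cannot settle whether the samples were paired, and nothing in the labels says that the numbers pair them. With each replicate left out in turn, 1 to 6 were raised and 3 to 13 lowered, both highest without knockdown replicate 3. Of the other pathway genes, 11 raised and 1 lowered, DESeq2 raised 6, and 4 to 15 were raised with a replicate left out. Lowered ones numbered 6 with GC correction, 7 with it and the block, 7 with libraries entered singly, 3 without a count filter, 4 with the block, 5 without knockdown libraries 3_2 and 3_3, and 1 to 3 with a replicate left out. Of 13 ratios 6 did not overlap, and 6 to 10 without 1 replicate, the highest without knockdown replicate 3, where fewer samples make overlap rarer. Counts of 5 to 18 a sample limit ADM and CA9.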
